A study of Mus musculus with 8 samples.

Results

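Mitochondrial ribosomal protein genes were taken as all genes on the array whose symbol starts with Mrpl, for proteins of the large ribosomal subunit, or Mrps, for those of the small subunit. Of 12393 genes measured, 74 met this rule, 47 named for the large and 27 for the small subunit. A gene read by several probe sets is given by its brightest, judged by the mean of the 8 arrays. All 74 had a mean above 6.87 on the deposited log2 scale, the lower limit for testing that 8003 genes passed. The split follows the symbols, although Mrps18a and Mrps30 are known from ribosome structures to sit in the large subunit, and the Mrps36 protein is now assigned to the 2-oxoglutarate dehydrogenase complex.

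The mitochondrial ribosome translates the few messenger RNAs made from mitochondrial DNA, which encode core subunits of the respiratory chain and of ATP synthase. Its RNA comes from mitochondrial DNA, whereas its proteins are all encoded in the nucleus, made in the cytosol and imported. The small subunit reads the codons and the large subunit joins the amino acids. Activated CD8 T cells enlarge their mitochondrial mass as they grow, and sustained killing by cytotoxic T cells is known to need mitochondrial translation.

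The cells were cytotoxic CD8 T lymphocytes (CTLs) of OT-1 mice, which carry a transgenic receptor for an ovalbumin peptide. CTLs of each of 4 mice, A to D, were divided between ID8 cells made to overexpress PD-L1, a ligand that inhibits T cells through PD-1, and ID8 cells depleted of PD-L1. In both groups the ID8 cells, from a single mouse ovarian cancer line, were loaded with the ovalbumin peptide, and 30 CTLs per target cell were kept with them for 4 h before magnetic separation and RNA extraction. This gave 4 arrays per group, and neither group had CTLs kept without targets. The age of the mice and the means by which PD-L1 was changed were not given in the sources used here.

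All 9 CD8 T cell markers, Cd8a and Cd3e among them, were above the limit for testing. So were 12 of the 22 tumour target markers on the array and 4 of 10 B cell markers. Of the CD4 T cell markers 2 of 3, Cd4 and Zbtb7b, were above it, and of the macrophage and dendritic cell markers 2 of 9. The NK cell (0 of 2), erythroid and platelet (0 of 4) and neutrophil (0 of 4) markers were all below it. The mean of the 12 tumour markers was 8.50, 8.94 and 8.82 with overexpressing and 7.76, 8.37 and 8.21 with depleted targets in mice A, C and D. In mouse B the order was turned, at 7.84 with overexpressing and 8.80 with depleted targets. Counts of calls, medians and the differences that mouse B moved most are therefore also given without it. In RNA from whole samples, fewer cells of a type and less RNA per cell cannot be told apart.

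The first question was whether the amount of PD-L1 on the target cells changes the mitochondrial ribosomal transcripts of the CTLs. No gene of either subunit passed. With the mouse as a block, limma called 0 of 47 large and 0 of 27 small subunit genes at an adjusted p under 0.05, where 0% of all tested genes passed, with a lowest adjusted p of 0.9995. At an unadjusted p under 0.05 there were 0 large and 1 small subunit genes, beside 2.85% of all tested genes. Differences, given as overexpressed minus depleted on the log2 scale, ran from -0.049 to 0.064 in the large and from -0.038 to 0.106 in the small subunit.

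These differences were measured closely. For 47 of 47 large and 27 of 27 small subunit genes, and 7404 of 8003 tested genes, changes of more than 1.19-fold up or down lay outside the 95% interval. The bound farthest from 0 was 0.150, or 1.11-fold, in the large and 0.222, or 1.17-fold, in the small subunit. More members were higher than lower with overexpressing targets, 36 against 11 in the large and 17 against 10 in the small subunit, beside 4275 against 3728 of all tested genes. The medians were 0.017, 0.0086 and 0.0033. Under quantile normalization of the arrays that of the small subunit turned to -0.0039, and that of all tested genes to -0.0035. Higher and lower members were not counted without mouse B, where the medians of both subunits fell below 0.

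Within single mice the shift was seen mainly in mouse B. The median difference of the large subunit genes was -0.017, 0.068, 0.002 and 0.022 in mice A to D, with 18, 41, 25 and 31 of 47 genes higher. Small subunit genes had medians of -0.023, 0.050, -0.004 and 0.014 in the same order, with 8, 21, 12 and 18 of 27 higher. Over all tested genes the medians were 0.001, 0.028, -0.020 and 0.005. Mouse B was also the animal whose tumour markers were lower with overexpressing targets, by a median of -1.008, against 0.855 in A, 0.530 in C and 0.600 in D, and the part of target RNA in the members' values was not tested. Without mouse B the medians were -0.0018 in the large and -0.0046 in the small subunit, beside -0.0057 over all tested genes. Then 0 members passed, beside 176 of all tested genes.

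**Figure D1:**
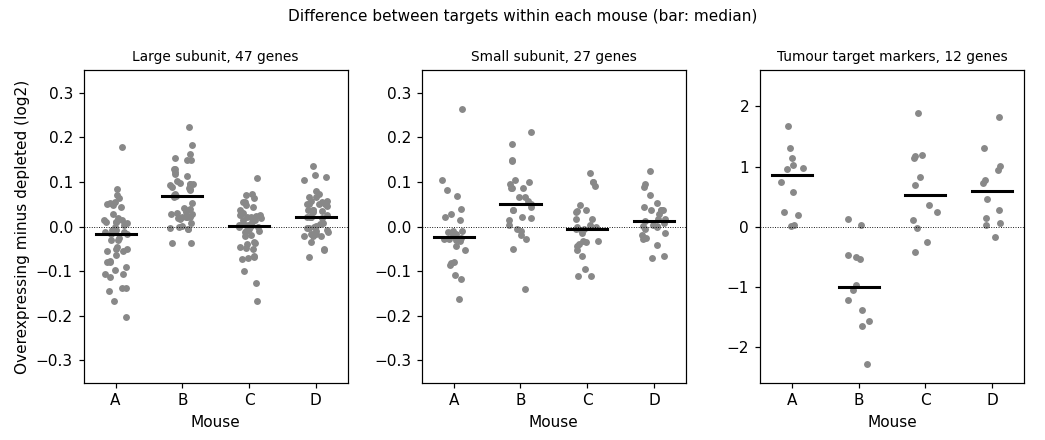
Each point is 1 gene's log2 difference, overexpressed minus depleted targets, within 1 mouse (A to D, horizontal axis), for 47 large subunit genes, 27 small subunit genes and 12 tumour target markers, and the bars mark medians. Members lie close to 0 in every mouse, whereas the tumour marker medians run from -1.008 in mouse B to 0.855 in mouse A.

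Mrps18a, 1 of 3 mammalian relatives of bacterial ribosomal protein S18, was the member with an unadjusted p under 0.05. With overexpressing and depleted targets it stood at 10.81 and 10.70 in mouse A, 10.67 and 10.63 in B, 10.70 and 10.60 in C, and 10.78 and 10.69 in D. The overexpressing value was the higher in 4 of 4 mice, though the groups overlapped. The difference was 0.084 (SE 0.029, 95% interval 0.0175 to 0.151), with a limma adjusted p of 0.9995. The other relatives, Mrps18b and Mrps18c, differed by 0.018 (SE 0.045) and 0.032 (SE 0.033).

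Mrps11, a small subunit protein with a bacterial counterpart of the same number, had the difference farthest from 0 among all members. It read 9.45 and 9.18 in mouse A, 9.38 and 9.30 in B, 9.52 and 9.58 in C, and 9.56 and 9.43 in D, so the groups overlapped and mouse C ran the other way. Its difference was 0.106 (SE 0.051), and 0.053 without mouse A. Mrps22, a small subunit protein with no bacterial relative whose human gene is linked to mitochondrial disease, differed by 0.052 (SE 0.037). Without mouse B, Mrps18a stood at 0.097 (adjusted p = 0.202), Mrps11 at 0.112, Mrps22 at 0.035 and Mrps18b at -0.038. On the lower side were Mrps30 at -0.038 (SE 0.043), Mrps16 at -0.024 (SE 0.027) and Mrps26 at -0.016 (SE 0.030), which without mouse B were -0.073, -0.039 and -0.0046.

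In the large subunit, the smallest p-values upward belonged to Mrpl40, Mrpl16 and Mrpl27. Mrpl16, whose bacterial counterpart lies by the site of peptide bond formation, read 10.05 and 10.02 in mouse A, 10.11 and 9.98 in B, 10.04 and 10.02 in C, and 10.14 and 10.07 in D. Its groups overlapped, with a difference of 0.064 (SE 0.035). Mrpl40 differed by 0.062 (SE 0.032) and Mrpl27 by 0.052 (SE 0.033). Downward were Mrpl44, an RNase III-like protein, at -0.049 (SE 0.036), Mrpl28 at -0.034 (SE 0.037) and Mrpl4 at -0.017 (SE 0.029), the last also a relative of a bacterial protein. Without mouse B the values were 0.043 for Mrpl16, 0.044 for Mrpl40, 0.037 for Mrpl27, -0.076 for Mrpl44, -0.055 for Mrpl28 and -0.032 for Mrpl4.

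The direction was the same in all 4 mice for 4 large subunit genes, Mrpl16, Mrpl32, Mrpl38 and Mrpl40, and for 2 small subunit genes, Mrps18a and Mrps22. These 6 were higher with overexpressing targets, and 0 members were lower in all 4 mice. Among all tested genes 467 were higher and 375 lower in all 4 mice, 10.5% together. In mice A, C and D alone, 9 large and 2 small subunit genes were higher in each and 7 and 3 lower in each. The share of all tested genes was not counted for these animals, so nothing is read from these counts.

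Next, the 4 animals were compared, which shows how much these genes vary where the target is the same. A minority of the members differed between mice, about as often as all genes did. In limma's F test with the target as a covariate, 15 of 47 large subunit genes (31.9%) and 7 of 27 small subunit genes (25.9%) passed at an adjusted p under 0.05, beside 29.3% of all tested genes. Both shares lay near that of all genes. The arrays of 1 animal came from the same T cells, so the error in this test is the spread between paired co-cultures. Without mouse A, 1 large subunit gene, Mrpl42, and 0 small subunit genes passed, beside 7.20% of all tested genes, and without mouse D 7 and 4 passed, beside 20.3%. Without mouse B 22 and 13 passed, beside 44.4%.

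The distance between the highest and the lowest mouse had a median of 0.160 on the log2 scale in the large and 0.161 in the small subunit, and of 0.186 over all tested genes. It exceeded 0.25, or 1.19-fold, in 6 large and 4 small subunit genes. The matching share of all tested genes was not counted. The widest distance was 0.303 (1.23-fold) in the large subunit, that of Mrpl17, and 0.404 (1.32-fold) in the small subunit, that of Mrps6. Of the total sum of squares of large subunit genes 78.8% lay between mice, 3.61% between targets and 17.6% in the remainder. For small subunit genes the shares were 80.8%, 4.66% and 14.6%, and over all tested genes 74.6%, 4.97% and 20.5%. Such shares rise with the number of groups compared, and there were more mice than targets.

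**Figure D2:**
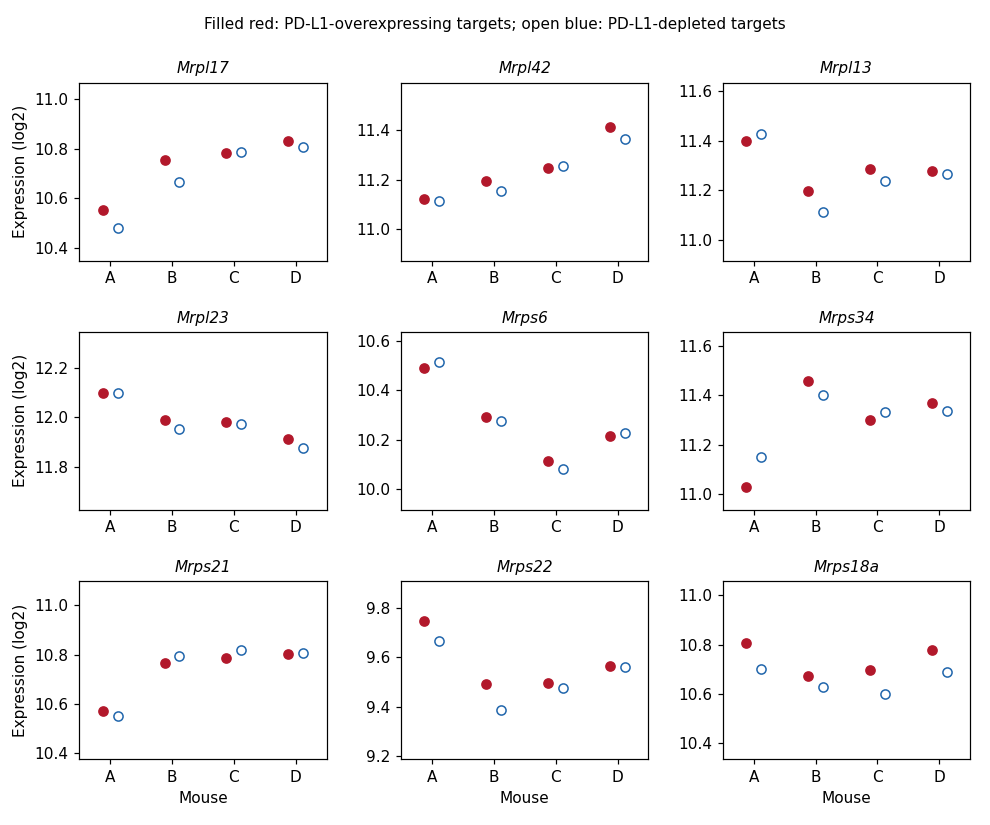
Deposited log2 expression of 9 members by mouse (A to D, horizontal axis), with filled red points for overexpressing and open blue points for depleted targets; each panel spans 0.72 on the log2 scale. Points of the same mouse lie close together, and mouse A stands high for Mrps6 (10.49 and 10.51) and low for Mrpl17 (10.55 and 10.48).

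Mrps6, relative of a bacterial protein that pairs with S18 in the platform of the small subunit, had the smallest p of all members between mice. It stood at 10.49 and 10.51 in mouse A, 10.29 and 10.28 in B, 10.12 and 10.08 in C, and 10.22 and 10.23 in D, the first value of each pair being that with overexpressing targets. Both arrays of mouse A were above and both of mouse C below all others (limma F test, adjusted p = 0.00109). Against the mean of the other mice, mouse A was higher by 0.301 (SE 0.036, adjusted p = 0.000345) and mouse C differed by -0.238 (adjusted p = 0.0052). Mrps34, a small subunit protein specific to mitochondria and needed to keep that subunit stable, went the other way in mouse A. Its values were 11.03 and 11.15 in mouse A, 11.46 and 11.40 in B, 11.30 and 11.33 in C, and 11.37 and 11.34 in D. Mouse A was the lowest, at -0.276 (SE 0.039, adjusted p = 0.000881), and mouse B was higher than the mean of the others by 0.178 (adjusted p = 0.0238). The call in mouse B was lost without mouse A (0.097), under quantile normalization (adjusted p = 0.0658) and with eBayes without a trend (adjusted p = 0.0787).

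Mrps21, the mitochondrial relative of bacterial S21, read 10.57 and 10.55 in mouse A and between 10.77 and 10.82 on the other 6 arrays. Mouse A alone set this gene apart, at -0.234 (SE 0.034, adjusted p = 0.000947), and without mouse A the distance between mice fell from 0.243 to 0.026. Mrps22 stood at 9.75 and 9.67 in mouse A, 9.49 and 9.39 in B, 9.49 and 9.48 in C, and 9.57 and 9.56 in D. It was higher in mouse A by 0.211 (SE 0.043, adjusted p = 0.00591), with both arrays above all others. Mrps14, relative of a bacterial protein of the small subunit head, was highest in mouse D, at 12.28 and 12.24, and read 12.07 to 12.19 elsewhere (0.126 above the mean of the others, adjusted p = 0.0188). That call was lost with the mean of its probe sets (limma adjusted p = 0.0878) and with eBayes without a trend (adjusted p = 0.1085).

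Among large subunit genes, Mrpl17 had the smallest p between mice. It read 10.55 and 10.48 in mouse A, 10.75 and 10.67 in B, 10.78 and 10.79 in C, and 10.83 and 10.81 in D, with both arrays of mouse A below all others (F test adjusted p = 0.00334). Mouse A differed from the mean of the others by -0.255 (SE 0.036, adjusted p = 0.000821) and mouse D by 0.149 (adjusted p = 0.0336). A second Mrpl17 probe set, with a mean of 6.85 just under the limit for testing, differed by 0.081 in mouse A, and with the mean of both the call was lost (adjusted p = 0.134). Mrpl42, a large subunit protein, was highest in mouse D. It read 11.12 and 11.11 in mouse A, 11.19 and 11.15 in B, 11.25 and 11.26 in C, and 11.41 and 11.36 in D. Mouse A was lower by 0.155 and mouse D higher by 0.209 than the mean of the others (adjusted p = 0.00566 and 0.00394). With the mean of its probe sets, of which the second is dim at a mean of 4.72, the call in mouse D was lost (adjusted p = 0.446).

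Mrpl23 and Mrpl13, both with bacterial counterparts, were higher in mouse A. Mrpl23, which sits at the exit of the tunnel through which the new chain leaves, read 12.10 and 12.10 in mouse A, 11.99 and 11.95 in B, 11.98 and 11.97 in C, and 11.91 and 11.88 in D. Mouse A was above all others, by 0.151 (SE 0.027, adjusted p = 0.00301), and mouse D below all others, by -0.121 (adjusted p = 0.0249). Mrpl13 read 11.40 and 11.43 in mouse A, 11.20 and 11.11 in B, 11.29 and 11.24 in C, and 11.28 and 11.27 in D. It was higher in mouse A by 0.183 (SE 0.034, adjusted p = 0.00376) and lower in mouse B, at -0.160 (adjusted p = 0.0204). With the mean of its 3 probe sets the Mrpl13 calls were lost (adjusted p = 0.0985 in mouse A and 0.786 in mouse B).

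Mouse A, compared with the average of the other 3 animals, had the most called members, and more of them lower than higher. In the large subunit 16 of 47 genes (34.0%) were lower and 4 (8.51%) higher, and in the small subunit 9 of 27 (33.3%) were lower and 3 (11.1%) higher. In mouse A 12.7% of all tested genes were lower and 18.1% higher. The medians of the differences were -0.038 in the large and -0.064 in the small subunit, beside 0.022 over all tested genes. By sign alone, 28 large subunit genes were lower and 19 higher, and 19 small subunit genes were lower and 8 higher.

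The lower calls in mouse A were small. They ran from -0.110 to -0.255 (1.08- to 1.19-fold) in the large and from -0.095 to -0.276 (1.07- to 1.21-fold) in the small subunit. In the large subunit they were Mrpl1, Mrpl9, Mrpl14, Mrpl15, Mrpl17, Mrpl18, Mrpl20, Mrpl21, Mrpl27, Mrpl35, Mrpl42, Mrpl44, Mrpl45, Mrpl49, Mrpl54 and Mrpl58. In all of these but Mrpl27 both arrays of mouse A lay below all 6 others. In the small subunit they were Mrps7, Mrps14, Mrps16, Mrps21, Mrps23, Mrps24, Mrps25, Mrps33 and Mrps34, and in all of these but Mrps14 both arrays of mouse A lay below. The higher calls were Mrpl13, Mrpl22, Mrpl23 and Mrpl37 (0.146 to 0.200) and Mrps6, Mrps22 and Mrps31 (0.182 to 0.301). Each of these had both arrays of mouse A above all others. Called or not, both arrays of mouse A lay below all others in 15 of 47 large and 12 of 27 small subunit genes. They lay above in 11 and 4. Over all tested genes they lay below in 13.9% and above in 22.3%.

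The members called lower in mouse A included proteins of different roles. Mrpl58, a peptidyl-tRNA hydrolase that releases stalled chains, read 10.65 and 10.66 in mouse A and 10.78 to 10.87 elsewhere. Mrpl54, specific to mitochondria, read 9.89 and 9.87 in mouse A, 10.14 and 10.12 in B, 10.09 and 10.11 in C, and 10.07 and 10.02 in D (-0.211, adjusted p = 0.00321). Mrpl35 read 11.53 and 11.55 in mouse A and 11.80 and 11.82 in D, the lowest and the highest animal, with differences of -0.176 and 0.185 (adjusted p = 0.00758 and 0.0171). Mrps16, whose human gene is linked to mitochondrial disease, read 12.19 and 12.28 in mouse A and 12.35 to 12.42 elsewhere (-0.147, adjusted p = 0.00789). Mrpl44 read 10.22 and 10.36 in mouse A and 10.42 to 10.50 elsewhere (-0.152, adjusted p = 0.0237), and Mrps7 differed by -0.137 (adjusted p = 0.034). Both of the latter missed the threshold of the F test over 4 mice (adjusted p = 0.0891 and 0.0929).

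**Figure D3:**
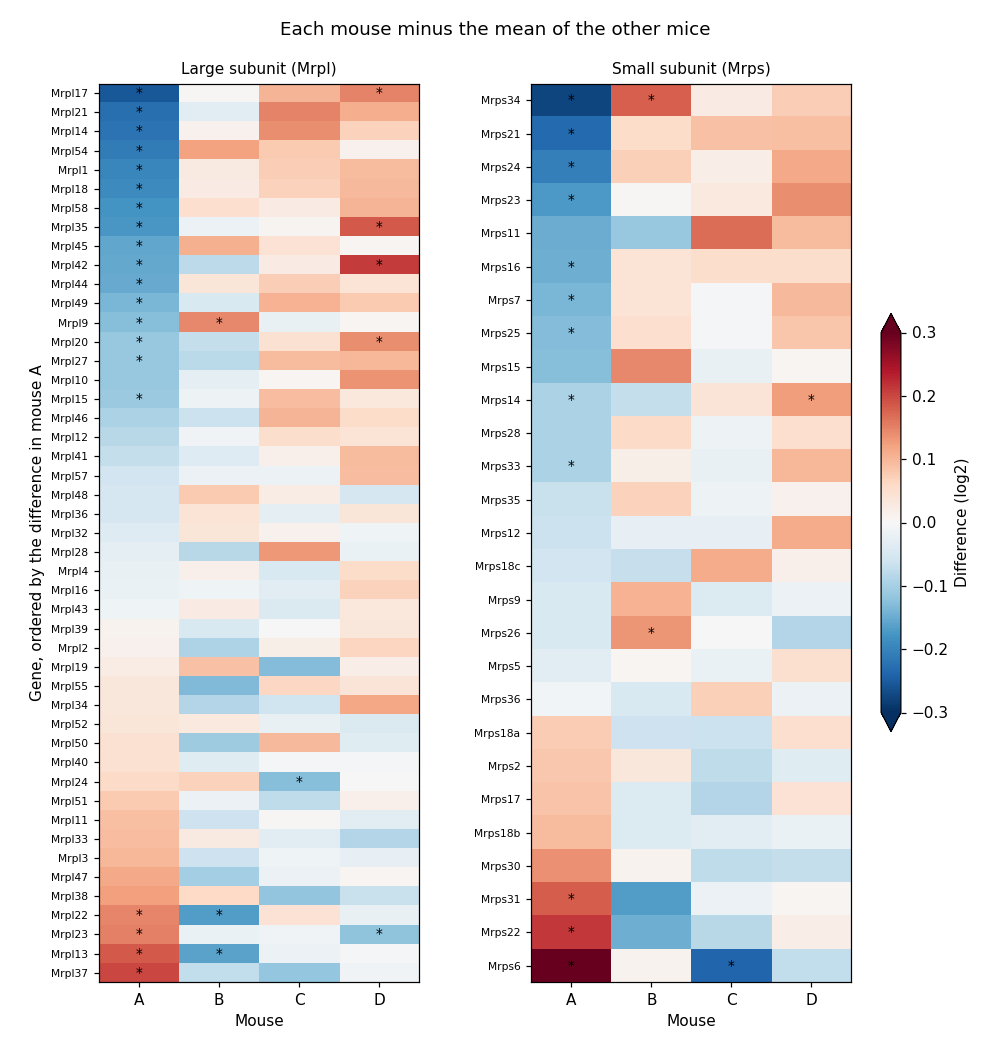
Log2 difference of each mouse (columns A to D) from the mean of the other mice for the 74 genes (rows), large subunit and small subunit apart, with colours from -0.3 (blue) to 0.3 (red); a star marks an adjusted p under 0.05. Stars are most frequent in mouse A, where 16 large and 9 small subunit genes were lower and 4 and 3 higher.

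Several members with central roles passed neither test. Mrpl12, the stalk protein that also binds mitochondrial RNA polymerase, read 10.74 and 10.83 in mouse A, 10.85 and 10.82 in B, 10.92 and 10.85 in C, and 10.88 and 10.87 in D. The mice overlapped (F test adjusted p = 0.296). Mrps12, the decoding-site relative of bacterial S12, read 10.09 to 10.15 in mice A, B and C and 10.25 and 10.24 in D (adjusted p = 0.149). Mrpl2 (adjusted p = 0.328), Mrpl3 (0.367), Mrpl11 (0.278), Mrps5 (0.764), Mrps18a (0.133), Mrps18b (0.473) and Mrps18c (0.135) also missed the threshold.

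Fewer members were called in the other animals. For mouse B, Mrpl9 was higher by 0.144 and Mrpl13 and Mrpl22 differed by -0.160 and -0.168, which is 1 of 47 higher and 2 lower in the large subunit, while 2 of 27 small subunit genes, Mrps34 and Mrps26 (0.132), were higher. The shares of all tested genes there were 6.3% higher and 2.96% lower. In mouse C, 0 members were higher, and 1 large subunit gene, Mrpl24 (-0.127), and 1 small subunit gene, Mrps6, were lower, beside 3.09% higher and 5.35% lower of all tested genes. In mouse D, 4 large subunit genes were higher, Mrpl17, Mrpl20 (0.139), Mrpl35 and Mrpl42, with 1 lower, Mrpl23, and 1 small subunit gene, Mrps14, was higher. There 4.56% of all tested genes were higher and 4.09% lower.

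The medians in mouse D were 0.033 in the large and 0.048 in the small subunit, with 33 of 47 and 20 of 27 genes above the mean of the other mice, beside a median of 0.00088 over all tested genes. In mice B and C the medians were between -0.017 and 0.013 and changed sign under quantile normalization (small subunit in B and C) or median centring (large subunit in B). The 4 contrasts share arrays, so a gene low in mouse A raises its value in the other mice, and they are no independent results. Of the 13 calls of members in mice B, C and D, 1 was kept without mouse A, that of Mrpl42 in D (0.178, adjusted p = 0.0425), and 12 were lost. Some of the lost calls hardly moved in size, as for Mrps26 (0.132 without mouse A) and Mrpl24 (-0.121), whereas Mrps34 moved to 0.097, Mrpl17 to 0.072 and Mrpl23 to -0.079. The call of Mrps26 in mouse B was also lost under quantile normalization, with no filter, with eBayes without a trend, without mouse C and without mouse D.

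**Figure D4:**
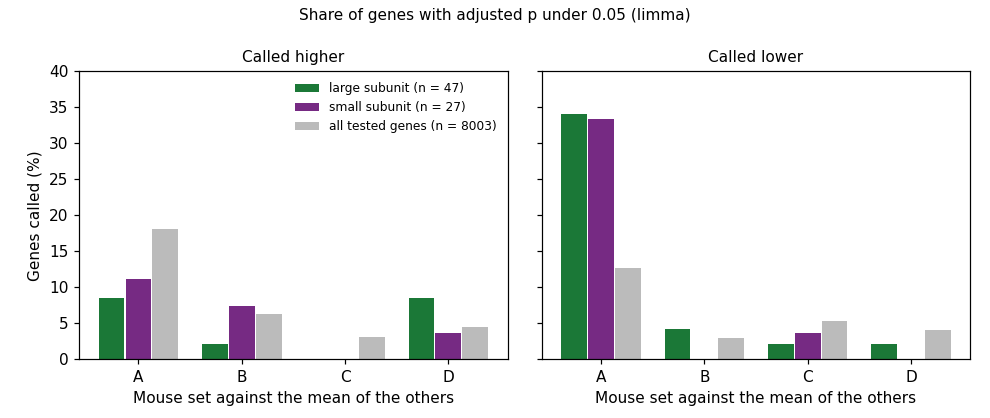
Percent of genes called higher (left panel) or lower (right panel) in each mouse against the mean of the other mice, at an adjusted p under 0.05. Bars are given for large subunit genes, small subunit genes and all tested genes. In mouse A 34.0% of large and 33.3% of small subunit genes were lower, beside 12.7% of all tested genes.

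The number of lower calls in mouse A depended on which animals it was set against and on the probe sets. When all probe sets of a gene were averaged, 8 large (17.0%) and 7 small (25.9%) subunit genes were lower, beside 12.8% of all tested genes. Without mouse D the counts were 8 (17.0%) and 4 (14.8%), beside 8.85%. They were 11 and 8 without mouse C, beside 11.6%, and 18 and 10 without mouse B, beside 17.8%.

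Several members were read by more than 1 probe set. Of 74 genes 33 had several, and 38 of their 53 other probe sets had a mean above the limit. In 25 of those 38 the difference of mouse A had the same sign as in the chosen probe set. For the genes called in mouse A there were 17 such probe sets in 12 genes, and 14 had the same sign. The exceptions were in Mrpl1 (0.009 against -0.195 in the chosen probe set), Mrpl21 (0.076 against -0.225) and Mrpl44 (0.001 against -0.152). The chosen probe sets of Mrpl15, Mrpl28, Mrpl52, Mrpl37, Mrpl38, Mrps12 and Mrps24 are of types that the array's maker marks as able to read related transcripts.

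Of the 9 CD8 T cell markers, 6 were lower and 0 higher in mouse A, with a median of -0.106, beside 12.7% lower of all tested genes. Cd8b1 (-0.013), Cd3e (-0.11) and Ifng (-0.00028) did not pass. Their mean was 12.59 with both targets in mouse A, 12.72 and 12.69 in B, 12.79 and 12.80 in C, and 12.70 and 12.71 in D. Also lower were 3 of 4 tested B cell markers, H2-Aa (-2.02), Ighm (-0.65) and H2-Ab1 (-0.54), while Cd74 (0.026) did not pass. Ms4a1, Cd79a, Cd79b, Cd22, Blk and Pax5 were below the limit for testing. Of the tumour markers 2 of 12, of the macrophage and dendritic cell markers 1 of 2 and of the CD4 T cell markers 0 of 2 were lower. The part of cell composition in the lower mitochondrial ribosomal genes was not tested.

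Other genes of mitochondrial translation were taken from lists by role, and 0 of them passed between targets. In mouse A, 2 of 4 ribosomal proteins under other symbols were lower and 0 higher: Chchd1 (-0.13, adjusted p = 0.009) and Gadd45gip1 (-0.16, adjusted p = 0.010). Chchd1 read 11.57 and 11.58 in mouse A and 11.66 to 11.76 elsewhere. The other such genes were Dap3 (-0.074) and Ptcd3 (0.001).

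Factors that act on the ribosome or its RNA had 0 lower calls in mouse A, where 18.1% of all tested genes were higher and 12.7% lower. Of 7 translation factors 1 was higher, the elongation factor Gfm1 (0.21), and of 16 genes of ribosome assembly and rRNA modification 1 was higher, Fastkd2 (0.25), with medians of 0.106 and 0.051. Of 10 mitochondrial tRNA synthetases, of which Kars and Gars also serve the cytosol, 4 were higher, Tars2 (0.23), Rars2 (0.17), Iars2 (0.23) and Ears2 (0.24), with a median of 0.118. Of 14 genes of mitochondrial DNA expression 3 were higher, with a median of 0.091: Polg (0.28), the mitochondrial DNA polymerase, Pnpt1 (0.19), which degrades mitochondrial RNA, and Mto1 (0.21), which modifies tRNA. Polg read 9.42 and 9.43 in mouse A and 9.10 to 9.18 elsewhere. The difference between these lists and the ribosomal proteins was not tested.

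Of 11 transcription regulators linked to mitochondrial genes 1 was higher in mouse A and 0 lower. This was Pprc1, a coactivator of the PGC-1 family, at 10.29 and 10.18 in mouse A and 9.79 to 9.98 elsewhere, 0.36 above the mean of the others. Myc did not pass in mouse A (0.030, adjusted p = 0.65) and was higher in mouse B by 0.21. Of 74 nuclear genes of the respiratory chain and ATP synthase, whose products join those made on mitochondrial ribosomes, 32 (43.2%) were lower and 5 higher in mouse A, with a median of -0.062. Of 45 cytosolic ribosomal protein genes 5 were lower and 6 higher, with a median of 0.015. Of all tested genes 12.7% were lower and 18.1% higher.

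Promoter sequences were looked at because many members were lower in the same animal. Members lower in mouse A were not compared with the rest, so the part of the motifs in that pattern was not tested. Windows from 250 bases before to 50 after the start, from RefSeq on GRCm38.p6, were matched by symbol for 65 of the 74 genes (71 windows). Not matched were Mrpl4, Mrpl13, Mrpl15, Mrpl19, Mrpl38, Mrpl54, Mrps28, Mrps34 and Mrps35. Below are the 250 bases before the start for the large subunit genes Mrpl17, Mrpl42 and Mrpl23 and the small subunit genes Mrps6 and Mrps21, which had small p-values between mice. Mrps12 was added after its letters and values were seen. They lie at Mrpl17 chr7:105811088-105811337, minus strand; Mrpl42 chr10:95501950-95502199, minus strand; Mrpl23 chr7:142532782-142533031, plus strand, Mrps6 chr16:92058086-92058335, plus strand, Mrps21 chr3:95871515-95871764, minus strand, Mrps12 chr7:28741822-28742071, minus strand. Capitals mark CCGGAAG, the core bound by ETS factors such as GABP, GCGCATGCG, bound by NRF1, and CCAAT, bound by NF-Y, where ATTGG is CCAAT on the opposite strand.
Mrpl17: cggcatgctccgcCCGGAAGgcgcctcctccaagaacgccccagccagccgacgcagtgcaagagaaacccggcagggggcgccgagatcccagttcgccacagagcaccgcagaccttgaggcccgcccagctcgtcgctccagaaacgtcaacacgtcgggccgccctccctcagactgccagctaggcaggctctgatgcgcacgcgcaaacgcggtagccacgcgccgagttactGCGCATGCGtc
Mrpl42: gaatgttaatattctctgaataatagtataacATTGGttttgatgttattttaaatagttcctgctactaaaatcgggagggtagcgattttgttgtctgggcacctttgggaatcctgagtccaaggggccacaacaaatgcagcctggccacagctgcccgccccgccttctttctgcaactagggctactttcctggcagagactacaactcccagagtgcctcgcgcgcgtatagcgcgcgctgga
Mrpl23: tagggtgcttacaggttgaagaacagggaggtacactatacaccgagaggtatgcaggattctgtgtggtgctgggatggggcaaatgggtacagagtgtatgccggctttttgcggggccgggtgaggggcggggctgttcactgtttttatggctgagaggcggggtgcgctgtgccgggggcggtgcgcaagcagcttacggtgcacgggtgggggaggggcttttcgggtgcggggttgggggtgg
Mrps6: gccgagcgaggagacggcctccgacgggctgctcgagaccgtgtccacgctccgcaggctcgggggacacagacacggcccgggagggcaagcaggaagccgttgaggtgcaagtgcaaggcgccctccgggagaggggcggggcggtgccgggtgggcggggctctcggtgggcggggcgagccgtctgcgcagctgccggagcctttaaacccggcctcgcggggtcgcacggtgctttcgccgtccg
Mrps21: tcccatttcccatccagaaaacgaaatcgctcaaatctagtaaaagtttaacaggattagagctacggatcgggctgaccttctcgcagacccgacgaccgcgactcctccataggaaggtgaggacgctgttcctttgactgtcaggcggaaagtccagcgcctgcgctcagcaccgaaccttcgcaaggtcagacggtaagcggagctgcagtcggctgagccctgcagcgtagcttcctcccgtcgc
Mrps12: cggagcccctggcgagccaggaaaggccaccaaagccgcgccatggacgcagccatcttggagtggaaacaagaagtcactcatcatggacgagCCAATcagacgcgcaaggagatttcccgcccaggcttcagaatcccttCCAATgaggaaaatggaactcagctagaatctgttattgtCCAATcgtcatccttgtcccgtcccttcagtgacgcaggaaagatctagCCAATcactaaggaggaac
Mrpl17 held the ETS and the NRF1 match on its own strand, and Mrpl42 a CCAAT on the opposite strand. Mrps12 held 4 CCAAT on its own strand. The printed stretches of Mrpl23, Mrps6 and Mrps21 held none of the motifs searched.

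Over all windows of members, searched on both strands, CCGGAAG was in 24 (33.8%), beside 18.3% of the windows of tested genes and 8.86% of all windows. GCGCATGCG was in 7 (9.86%), beside 3.8% and 1.75%. The YY1 motif AAGATGGCG was in 7 (9.86%), beside 3.19% and 1.40%. The E-box CACGTG was in 7 (9.86%), beside 10.2% and 7.15%, and CCAAT in 28 (39.4%), beside 37.4% and 37.4%. By subunit, CCGGAAG was in 14 of 46 large and 10 of 25 small subunit windows, GCGCATGCG in 6 and 1, AAGATGGCG in 4 and 3, CACGTG in 6 and 1, and CCAAT in 16 and 12. These are matches of letters, not measured binding. The median GC content was 58.7% in members' windows, 61.0% in those of tested genes and 52.7% in all.

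Some members share their promoter region with a neighbouring gene read in the opposite direction. A start on the opposite strand within 300 bases was found for 21 windows of members (29.6%), beside 13.7% of the windows of tested genes and 8.39% of all windows. Within the gene set, Mrpl46 and Mrps11 form such a pair with 42 bases between their starts, and differed in mouse A by -0.094 and -0.148, neither called. Mrps12 is paired with Sars2, the mitochondrial seryl-tRNA synthetase, at 147 bases, and Mrpl43 with Twnk, the mitochondrial DNA helicase, at 116 bases. In mouse A Mrps12 differed by -0.064 and Sars2 by 0.146. In 4 of 10 distinct pairs with both genes tested the direction in mouse A was the same, and in the pair where both were called, Mrpl18 was lower (-0.191) and Tcp1, a cytosolic chaperonin subunit, higher (0.099).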

How the data were processed

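RNA of 8 samples, 1 array each, was read on a 3' expression array. The authors deposited log2 values, 1 for each probe set on each array. They run from 3.60 to 15.24, from which the scale was inferred; summarisation and normalization are not given in the sources used here. Array distributions were alike, at most 0.167 apart at any rank, so shifts common to most genes cannot be seen, and the number of arrays limits the precision. Of 22626 non-control probe sets, the platform annotation gave 1 symbol for 20380, several for 691 and none for 1555; 3 further probe sets with a member among several symbols were not used. Genes with a mean at or above the 40th percentile (6.87) entered limma 3.58.1 (R 4.3.3; lmFit, eBayes with a trend, two-sided, Benjamini-Hochberg over 8003 genes). For the targets the fit held mouse as a fixed block, since the series design states the division and the titles name the mouse. Across genes, the paired arrays deviated together from their group means, with correlations of 0.82 (A), 0.16 (B), 0.61 (C) and 0.64 (D). Replicates were separate mice; the table held 0 columns of other samples.

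The members and lists were chosen with earlier results of these data known. Named genes were, per subunit, the 5 with the smallest F test p, the 3 with the smallest p between targets in each direction, up to 2 called per mouse and direction, a set of members with known roles, and up to 2 per other list; counts are listed by name. Alternatives were no block, a random block, quantile normalization, median centring, other filters, the mean of probe sets, other variance models, a tumour marker covariate and leaving out each mouse. The steps were tested on simulated data of 8003 genes, in which a small share of genes was changed and the noise was independent between genes and arrays. For mouse A against the others, 46.3% of genes with a 1.19-fold change and 88.1% with a 1.41-fold change were recovered. For the targets the shares were 59.7% and 91.0%. The F test between mice, with mouse A changed, recovered 20.9% and 74.6%, so a gene that missed its threshold may still differ between mice. The adjusted threshold depends on how many genes change. In the real data 0% of genes passed between targets and 29.3% between mice, so these shares do not give the power reached there.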

Additional observations from a re-analysis of the deposited data

Results flagged for a closer look

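For the named members and the subunit means, each group of 4 arrays was searched for an array far from the rest. The measure was the ratio of its gap to the whole range (Dixon's test, 95% limit). In 4 of 72 groups the ratio was above the limit, where 1 group in 20 would give about 3.6. Many named members were picked because mice differed on these same arrays, so that rate need not hold for them. Nothing is read from the comparison. Mouse A was lowest for Mrps21 with overexpressing (0.8365) and depleted targets (0.9007) and for Mrpl44 with overexpressing targets (0.8918). Mouse D was highest for Mrps12 with depleted targets (0.9355).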

How the results depend on the processing

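The count of members called between targets was 0 in each subunit under every alternative run, among them no replicate block for the paired arrays, the mouse as a random block (correlation within mice 0.603) and the tumour marker mean as a covariate. With the target left out of the fit between mice (no replicate block), 17 large and 9 small subunit genes passed between mice, beside 33.7% of all tested genes, and 15 and 10 were lower in mouse A, beside 13.4%. With eBayes without a trend, 5 large and 4 small subunit genes passed between mice, beside 20.6% of all tested genes, and 5 small subunit genes were lower in mouse A, beside 10.7%; with the mean of probe sets, 8 large subunit genes were lower there, beside 12.8%. Leaving out each mouse, 1 to 22 large and 0 to 13 small subunit genes passed between mice. In mouse A, 8 to 18 large and 4 to 10 small subunit genes were then lower and 3 to 7 large subunit genes higher, with a small subunit median of -0.0809 to -0.0595. Among the members named for the smallest p between targets, none called, differences turned for Mrpl28 (-0.0555 to 0.002627), Mrps30 (-0.0732 to 0.003173) and Mrpl4 (-0.0319 to 5.2e-05). Members outside that set also turned without mouse B, such as Mrpl2 (0.036 to -0.0018) and Mrps15 (-0.0039 to 0.042). The cause was not tested. Of the other values for subunits, 133 were taken as unchanged. These were counts within 1.5 times of the main fit, and medians that moved by less than their spread over mice or targets. Direction was not part of that rule. Medians between targets changed sign without mouse B and, in the small subunit, under quantile normalization. The median of all tested genes in mouse A was 0.022 as deposited, 0.015 after quantile normalization and 0.030 after median centring. Under quantile normalization the median difference between targets was 0.0042 in the large and -0.0039 in the small subunit, beside -0.0035 over all tested genes. Levels cannot be compared between probe sets, and dim probe sets were not tested.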
